A study of Mus musculus with 3 samples.

Results

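The genes described here are 6 that mark or are strongly expressed in Müller glia: Car2, Apoe, Dkk3, Glul, Clu and Vim. They were followed in neural retinas of Rp1 knockout mice (Rp1-/-) at postnatal day 10, on the Affymetrix U74Av2 array, which reads each transcript with 1 or more sets of short probes. All probe sets whose single gene symbol in the platform annotation was 1 of these 6 were taken, which gave 9 of 12422 gene probe sets, for 6 of 8251 genes with a symbol: 2 each for Apoe, Glul and Clu and 1 each for Car2, Dkk3 and Vim. The series held 3 arrays in 1 group. Each array was hybridised with RNA from pooled neural retinas of 3 to 4 knockout mice, whose background was a mixture of 129/SvEv and C57BL/6, and the tissue was taken between 1 and 2 pm. Rp1 is a microtubule-associated protein of the photoreceptor outer segment. No array of another genotype was analysed here, so the comparisons are between pools of mutant retinas, and no effect of the Rp1 loss can be read from them. Whether any mouse contributed to more than 1 pool is not stated. The pools are named 1 to 3 in accession order. The labels describe all 3 pools as Rp1 knockout, but only the sample titles of pools 2 and 3 contain rp1; the title of pool 1 does not. Whether pool 1 differed in genotype was not tested. Prph2 encodes peripherin 2, a structural protein of outer segment discs. It read 9356.3 in pool 1, 1469.1 in pool 2 and 1332.3 in pool 3. That is 7.02-fold from lowest to highest, and Prph2 passed the test of variation between pools (limma, adjusted p = 0.0011). Of 10 rod genes with a probe set, Prph2 alone was highest in pool 1, and the other 9 were highest in pool 2.

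Müller glia span the retina from its inner to its outer limiting membrane and are the last cell class that retinal progenitors produce. They clear glutamate and potassium from the extracellular space, convert glutamate to glutamine, buffer carbon dioxide and pH, supply lipid to neurons and hold the tissue together mechanically. In the rodent retina they are still maturing when photoreceptor outer segments form. The 6 genes cover several of these roles: Glul encodes glutamine synthetase, Car2 a cytosolic carbonic anhydrase, Apoe and Clu (clusterin, also called apolipoprotein J) secreted lipid-carrying proteins, Dkk3 a secreted protein of the Dickkopf family, and Vim the intermediate filament protein vimentin. None of them is restricted to these cells. Car2 is also made by red blood cells and oligodendrocytes, Apoe by microglia and astrocytes, and Vim by progenitors, vessel walls and lens. The arrays read whole retina, so fewer cells of a type and less RNA per cell cannot be told apart.

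Sequence upstream of annotated transcript starts was held in the RefSeq promoter table (GRCm38.p6) for 3 of the 6 genes. They were Glul, whose probe sets disagreed, Vim, which was not above background, and Apoe, which differed most between pools 1 and 2. Each run is the 250 bases before an annotated transcript start, 5′ to 3′ on the strand of the gene. Capitals mark TATAAA (the letters of a TATA box), CCAAT (the letters of a CCAAT box) and ACAAT (core letters of SOX factor motifs), each searched on both strands. The windows lie at chr1:153899679-153899928 on the plus strand for Glul, chr2:13574061-13574310 on the plus strand for Vim and chr7:19699189-19699438 on the minus strand for Apoe.
Glul: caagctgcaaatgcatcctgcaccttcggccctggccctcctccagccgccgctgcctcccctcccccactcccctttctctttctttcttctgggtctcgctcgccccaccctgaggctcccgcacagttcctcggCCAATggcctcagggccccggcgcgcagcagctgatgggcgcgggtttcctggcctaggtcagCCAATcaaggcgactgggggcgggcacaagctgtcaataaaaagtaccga
Vim: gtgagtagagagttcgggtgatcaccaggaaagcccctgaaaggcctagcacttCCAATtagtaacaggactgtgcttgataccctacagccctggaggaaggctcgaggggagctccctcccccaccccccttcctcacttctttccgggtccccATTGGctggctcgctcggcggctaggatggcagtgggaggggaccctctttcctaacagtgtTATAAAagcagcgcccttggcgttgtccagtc
Apoe: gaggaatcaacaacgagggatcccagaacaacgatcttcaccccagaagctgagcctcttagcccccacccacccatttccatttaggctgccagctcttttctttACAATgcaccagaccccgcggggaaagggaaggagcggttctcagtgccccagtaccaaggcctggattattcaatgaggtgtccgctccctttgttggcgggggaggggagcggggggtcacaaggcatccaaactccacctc
The Glul window held CCAAT on the strand of the gene at 113 and 50 bases before the start, and neither of the other motifs. The Vim window held TATAAA at 32 bases before the start and CCAAT on both strands, with leftmost letters at 196 and 94. The Apoe window shown held ACAAT at 144 bases and no match to the other motifs. This Apoe window is the most upstream of 3 in the table, for 3 annotated starts. All 3 lie inside the annotated span of the gene (chr7:19696244-19701310), and none precedes its 5′ edge. The Glul and Vim windows end at the edge of their gene. The second held TATAAA on both strands, with leftmost letters at 96 and 100 bases before its start, and the third held none of the 3 motifs. Over 32851 windows of the same length, 12.4% held TATAAA, 33.8% CCAAT and 27.7% ACAAT on either strand. These matches describe the letters and were not tested as binding sites, and the arrays carry no measurement of them.

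Of the 6 genes, 5 were detected in every pool and none passed the test of variation between pools. Signals are the deposited intensities in scaled array units, and a probe set binds its target with its own strength, so signals of different probe sets were not compared as amounts. The background floor was the 90th percentile, on each array, of 19 control probe sets for bacterial and yeast transcripts, which have no counterpart in mouse RNA. It lay at 100.5, 124.8 and 120.4 in pools 1, 2 and 3. A probe set was called measured where its mean signal exceeded the mean floor, which held for 8327 probe sets in all. Among the 9 probe sets, 7 were measured, and these 7 were above the floor in all pools. The other two, the probe set of Vim and the second of Apoe, were under it in all pools.

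**Figure D1:**
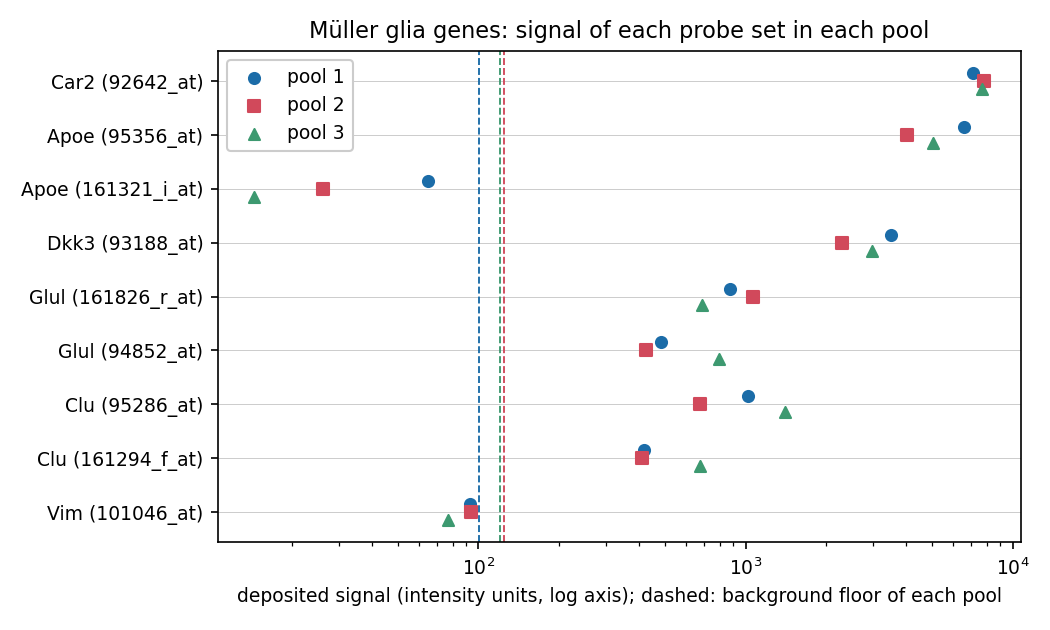
Deposited signal (intensity units, log axis) of the 9 probe sets of the 6 Müller glia genes. Each point is 1 pool of retinas and each dashed line that pool's background floor (100.5, 124.8 and 120.4); the 3 points of Vim and of the second Apoe probe set lie left of the floors.

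Car2 was the steadiest of the measured genes. Its probe set (92642_at) had 7104.6 in pool 1, 7816.2 in pool 2 and 7687.8 in pool 3, with a mean of 7536.2 ± 379.2 (SD, n = 3 pools). The 3 values spanned 1.1-fold and lay between 62.6 and 70.7 times the floor of their array. The SD of its log2 signal was 0.07, against 0.21 that the intensity trend of the limma fit gave for probe sets of this brightness (limma, adjusted p = 1). The summed signal of the blood markers was highest in pool 1, at 20756.8 over 5 measured genes of 8 with a probe set. It was 12977.4 in pool 2 and 11012.3 in pool 3. Of the 5 genes, 3 were highest in pool 1 and 2 in pool 3. Hba-a1, the alpha globin of red cells, made up most of the sum, with 16422.3, 9461.1 and 8110.5 in pools 1, 2 and 3. Car1, the carbonic anhydrase typical of red cells, was not measured. The part of blood in the Car2 values was not tested. Of the oligodendrocyte markers, 2 of 6 with a probe set were measured (Mbp and Mag), and Mog, Cnp, Mobp and Mal were not.

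Among the other genes of carbonic acid chemistry and acid-base transport, 12 of 16 with a probe set were measured and 0 passed the test (limma). Their median SD was 0.34, against 0.27 over all measured probe sets. Bsg (basigin, the partner of monocarboxylate transporters) had 6570.1, 5548.9 and 6143.6, and Slc4a3 (an anion exchanger of the bicarbonate family) 1425.6, 1455.3 and 1628.8. Car14, a membrane-bound carbonic anhydrase with its active site outside the cell, had 1363.8, 1497.3 and 1373.6. Like Car2, it spanned 1.1-fold across the pools. Slc4a4, the sodium bicarbonate cotransporter, was not measured.

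Apoe and Dkk3 were both highest in pool 1 and lowest in pool 2. Apoe (95356_at) had 6567.3, 4017.7 and 5037.6 in pools 1, 2 and 3, a mean of 5207.5 ± 1283.3 (SD, n = 3) and a range of 1.63-fold. Dkk3 (93188_at) had 3511.3, 2293.8 and 2974.6, a mean of 2926.6 ± 610.2 (SD, n = 3) and a range of 1.53-fold. On the log2 scale pool 1 exceeded pool 2 by 0.71 for Apoe and 0.61 for Dkk3. The order from pool 1 through pool 3 to pool 2 was that of 1481 of the 8327 measured probe sets (17.8%). The SDs of log2 signal were 0.35 and 0.31, against trend values of 0.22 and 0.23, and neither gene passed (limma, adjusted p = 0.99 for both). The second Apoe probe set (161321_i_at) had 64.5, 26.2 and 14.5, all under the floor. Of these 19 controls, 6, 12 and 16 were brighter than it in pools 1, 2 and 3. The suffix i marks a set that lost part of its probes to the design rules, and its 3 values are bounds on its signal rather than levels.

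Apoe is also made by microglia and astrocytes, whose markers were summed for each pool. The microglial list had 8 measured genes of 11 with a probe set, with summed signals of 2556.7, 2518.1 and 2751.1 in pools 1, 2 and 3. The sum was lowest in pool 2, as for Apoe, and highest in pool 3. Of the 8 genes, 4 were lowest in pool 2, and the median log2 difference of pool 1 minus pool 2 was 0.02. C1qb of this list, a subunit of the first complement component, had 332, 180.1 and 178.7 by a set of the i class, highest in pool 1 as Apoe was, and 198.2, 220 and 245.8 by its other probe set. Aif1, Itgam and Fcer1g of this list were not measured. The astrocyte list had 3 measured genes of 4, summing to 1495.9, 1336.1 and 1686.7, also lowest in pool 2 and highest in pool 3. Pdgfra (986.1, 788 and 1173.4) made up most of this sum and was the only 1 of the 3 genes lowest in pool 2. Pax2 had 256.2, 260.9 and 275.6, lowest in pool 1. The filament gene Gfap had 253.6, 287.2 and 237.7 by its brighter probe set, highest in pool 2. The other Gfap probe set had 86.3, 148.3 and 53.2, under the floor in pools 1 and 3. Astrocytes enter the retina along the nerve fibre layer with the growing vessels, and Müller glia make Gfap mainly under stress. The part of either cell type in the Apoe values was not tested.

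The genes that receive, carry or modify lipoproteins gave 13 measured of 20 with a probe set, and 0 passed the test (limma). Their median SD was 0.27, the same as over all measured probe sets. Lrp1, a receptor that takes up Apoe particles, had 1083.3, 750.8 and 932.4, with its highest and lowest pools those of Apoe. Lrpap1, the chaperone of that receptor family, had 1860.9, 1281.1 and 2088.1. Abcg1, which exports cholesterol to lipoprotein particles, had 1785.8, 1649.6 and 1834.3, and Scarb1, the receptor for high-density particles, 2730.1, 2563.1 and 2198.6. Vldlr, a receptor for Apoe-rich particles, had 267.2, 147.7 and 138.8 (limma, adjusted p = 0.99), and 155.9, 134.8 and 157.2 by a second probe set.

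Around Dkk3, the list of Dickkopf and Wnt pathway genes had 19 measured of 24 with a probe set, and 0 passed (limma). The median SD was 0.26. Dkk1 and Dkk2, which bind the Wnt co-receptors, were not measured. Ctnnb1 (beta-catenin) had 4594.8, 4848.9 and 4288.2, and Dvl1, which relays the signal from the receptor, 1700.2, 1697.6 and 1423.4. Fzd4, a receptor needed for retinal vessels, had 915.8, 793.1 and 940.1, while its other probe sets were under the floor in all pools. The widest spreads in the list were those of the receptor Fzd3, with 598.9, 270.4 and 222.5, and the feedback inhibitor Axin2, with 232.1, 337.5 and 131.1 (limma, adjusted p of 0.83 and 0.99). A second Fzd3 probe set had 295.9, 276.3 and 173.5.

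The 2 probe sets of Glul ordered the pools differently. The brighter one (161826_r_at) had 876, 1069.6 and 684.2 in pools 1, 2 and 3, highest in pool 2 and lowest in pool 3. The other (94852_at) had 482.2, 422.7 and 795.4, highest in pool 3 and lowest in pool 2. Pool 2 minus pool 3 was thus 0.64 on the log2 scale by the first and -0.91 by the second. The means were 876.6 ± 192.7 and 566.8 ± 200.2 (SD, n = 3), and neither probe set passed (limma, adjusted p = 0.99 for both). The suffix r marks a set designed under relaxed rules, and the annotation lists no accession for it. Both readings agree only in that glutamine synthetase was above background in every pool, at 3.39 to 8.72 times the floor. So no direction between pools is given for Glul.

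Genes of the glutamate and glutamine cycle gave 8 measured of 9 with a probe set, and 0 passed (limma). The median SD was 0.24. Got2, the mitochondrial aspartate aminotransferase, had 1089.3, 1288.5 and 1343.5 by a set of the r class, while its other probe set was under the floor in all pools. Slc38a2, a glutamine transporter, had 841.8, 910.2 and 878.6 by its brightest probe set, and its other probe sets were under the floor in all pools. Glud1, glutamate dehydrogenase, had 690.1, 466.9 and 630.1, and its other probe set was likewise under the floor in all pools. Pcx, pyruvate carboxylase, which in nervous tissue is a glial enzyme that replenishes carbon for glutamine, had 172.1, 288.6 and 287.7 in its brighter probe set and 134.9, 155.1 and 236.1 in the dimmer one, both lowest in pool 1. Slc1a3, the main glutamate transporter of Müller glia, had no probe set with its symbol alone.

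Clu differed most between pools, and both of its probe sets were highest in pool 3 and lowest in pool 2. The brighter one (95286_at) had 1023.4, 677.1 and 1400.6, a mean of 1033.7 ± 361.9 (SD, n = 3) and a range of 2.07-fold. The other (161294_f_at) had 418.4, 409.2 and 677.2, a mean of 501.6 ± 152.1 (SD, n = 3) and a range of 1.65-fold. By the first, pool 1 lay between the others, while by the second pools 1 and 2 were within 0.03 on the log2 scale. The SD of the first was 0.53 against a trend of 0.26, which reached an unadjusted p of 0.042 but missed the threshold after adjustment (limma, adjusted p = 0.88). The second did not pass either (limma, adjusted p = 0.99). An unadjusted p under 0.05 was found for 5.34% of all measured probe sets. The suffix f marks a set whose probes can bind related transcripts.

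**Figure D2:**
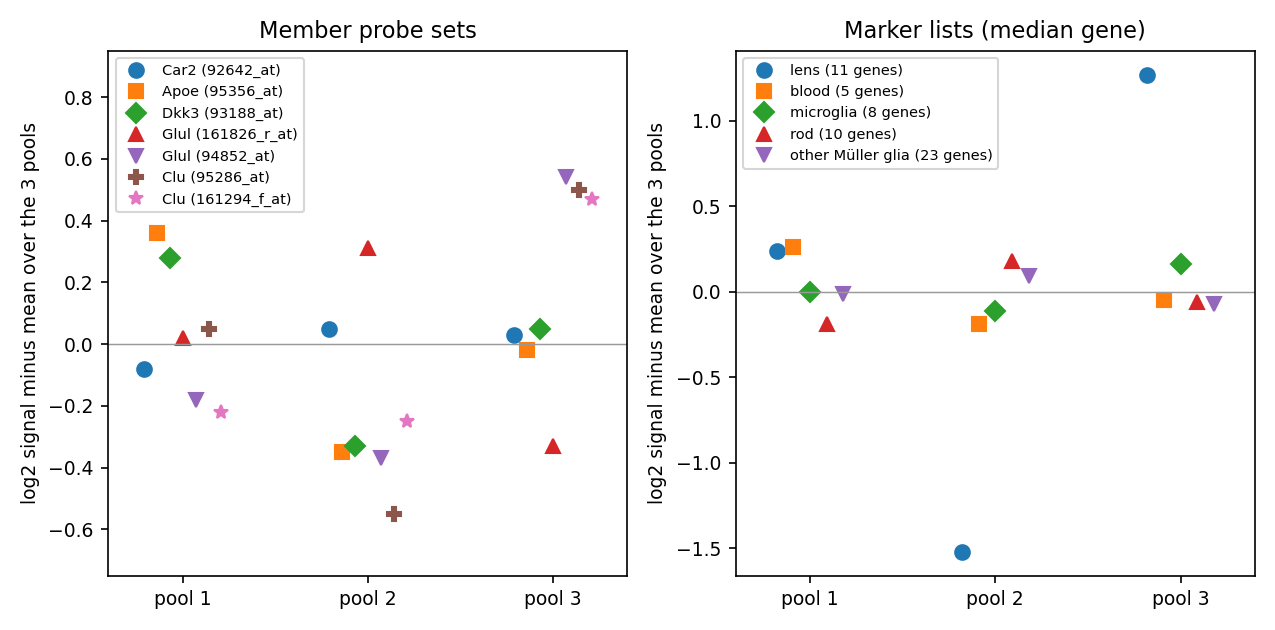
Log2 signal minus its mean over the 3 pools, for the 7 measured probe sets (left) and for the median gene of 5 marker lists (right, wider axis); points are offset sideways for legibility. Both Clu probe sets and 1 of Glul are highest in pool 3 (0.47 to 0.54), Apoe and Dkk3 in pool 1 (0.36 and 0.28), and the lens list runs from -1.52 in pool 2 to 1.27 in pool 3.

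Lens transcripts moved in the same order as Clu. By their brightest probe sets, all 11 measured lens genes, of 12 with a probe set, were highest in pool 3 and lowest in pool 2. Their summed signals were 94913.7, 25459.7 and 203614.4 in pools 1, 2 and 3. Dimmer sets of the r class did not have this order for Crybb2 (798.8, 846.6 and 991.3) and Cryge (202.3, 241.3 and 207.7). Other dimmer sets of Crygb (306.3, 166.7 and 465.3) and Cryge (14933.2, 4396.6 and 30408.8) had it. Cryaa, the alpha-A crystallin of lens fibres, had 18251.8, 3496.7 and 40575.6. Of the 7 member probe sets, 3 had this order, both of Clu and the 94852_at set of Glul, as did 1306 of all measured probe sets (15.7%). Apoe, Dkk3 and Car2 did not have it. The part of lens RNA in the Clu and Glul values was not tested. Among complement components, complement regulators and extracellular chaperones, the functional company of clusterin, 8 of 12 genes with a probe set were measured and 0 passed (limma). Vtn (vitronectin, which like clusterin restrains the terminal complement complex) had 390.8, 752.9 and 582.5, so its lowest pool was pool 1 and not pool 2. C1qc had 583.6, 784 and 731.8, and Hp (haptoglobin) 235.7, 211.1 and 459.6.

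Vim was not above background in any pool. Its only probe set (101046_at) had 93.3, 93.5 and 76.6, between 0.636 and 0.929 times the floor of its array. Of these 19 controls, 3, 4 and 8 were brighter than it in pools 1, 2 and 3. It was above the median control of each array (41.2, 60.9 and 45.7), and it was left out of the test because its mean lay below the mean floor. Of the markers of other vimentin-containing cells, 7 of 9 endothelial and 3 of 4 pericyte genes with a probe set were measured. Over all gene probe sets it was 8327 of 12422. Above the floor in all pools were 5 of the endothelial genes and 1 of the pericyte genes, and 7198 of all gene probe sets. The signal of this probe set has only an upper bound, which does not bound the amount of vimentin transcript. The second Apoe probe set was also under the floor, while the first was above it in all pools.

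The other intermediate filament genes had 13 measured of 15 with a probe set, with a median SD of 0.24, and 0 passed (limma). Among the neuronal filaments, Ina (internexin) was at 2873.6, 2331.5 and 2077, Nefl at 525.9, 692.9 and 712.3 and Nefh at 576.2, 610.5 and 525. A second Ina probe set had 2441.7, 2715.4 and 1598.3, highest in pool 2. Bfsp1, a filament protein of lens fibres, had 430, 171 and 735.8, the widest spread of the list (limma, adjusted p = 0.36). Des, the muscle and pericyte filament, had 167.1, 99.5 and 232.5, under the floor in pool 2.

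No member passed the test of variation, and the members shared no order of the pools. With the brightest probe set of each gene, the median SD of the 5 measured genes was 0.32, against 0.27 over all measured probe sets. Of the 7 measured probe sets, 6 had an SD above the trend, as did 39.7% of all measured probe sets, and Car2 was the exception. The test asks whether a probe set varied more than others of like brightness, and 18 of 8327 probe sets (0.216%) passed it, of which 0 were members (limma). That count was 40 without pool 1, 10 without pool 2 and 4 without pool 3. At an unadjusted p under 0.05 (limma) there was 1 of the 7 member probe sets, that of Clu, against 5.34% of all measured probe sets. The precision is limited by the number of arrays.

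**Figure D3:**
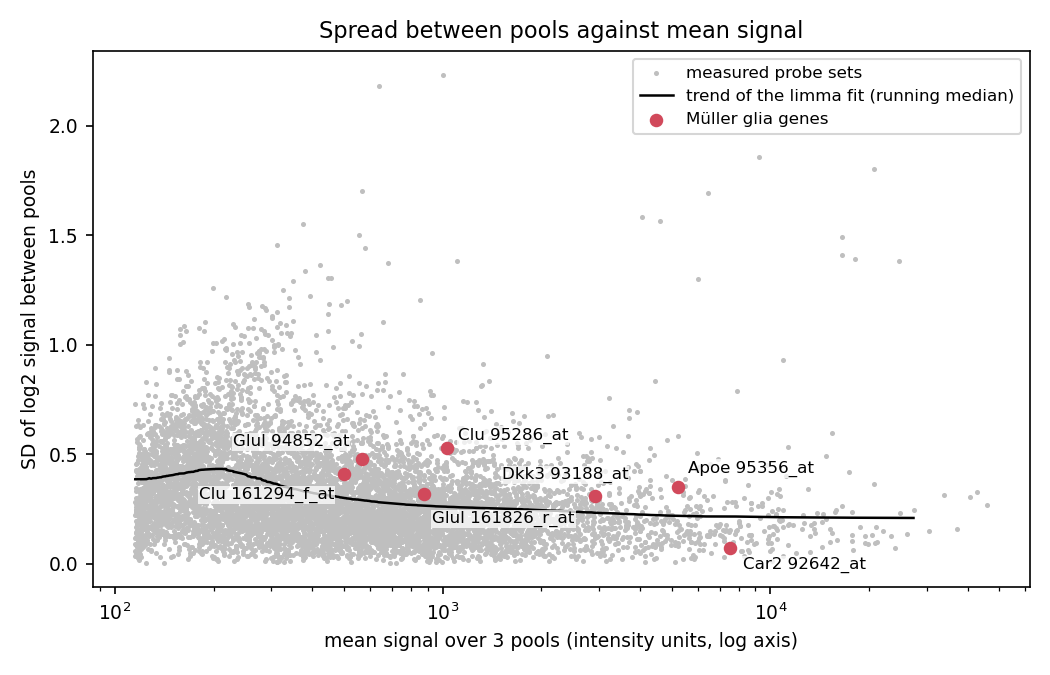
SD of log2 signal between the 3 pools against mean signal (intensity units, log axis) for the 8327 measured probe sets (grey), the trend of the limma fit (line) and the 7 measured Müller glia probe sets (red). The red points lie between 0.07 for Car2 and 0.53 for Clu 95286_at, and that of Car2 alone lies under the line.

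The median log2 difference of the 5 measured genes was 0.60 between pools 1 and 2 and 0.24 between pools 1 and 3, higher in pool 1 in both cases. Pool 2 minus pool 3 gave -0.33. Over all measured probe sets these medians were -0.01, -0.01 and 0.01. Pool 1 exceeded pool 2 in 3 of the 5 genes (Apoe, Dkk3 and Clu). With 1 array per pool these differences have no test. When the probe sets of each gene were averaged, the medians were 0.31 for pools 1 and 2, -0.11 for pools 1 and 3 and -0.33 for pools 2 and 3, so the first depends on the choice of probe set in size and the second in direction. A difference of more than 2-fold was seen once, for Clu 95286_at, which was higher in pool 3 than in pool 2. In that direction 2.38% of all measured probe sets exceeded 2-fold. In the opposite direction the share was 2.73%, and 0 members exceeded it. For pools 1 and 2 it was 0 of the 7 member probe sets, against 2.73% of all measured probe sets higher in pool 1 and 3.52% higher in pool 2. For pools 1 and 3 it was again 0 of 7, against 3.11% higher in pool 1 and 3.81% higher in pool 3.

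Genes with the nearest pattern over the 3 pools were found by the root mean square distance between log2 values after subtracting each probe set's mean. With 3 pools close matches are common: 13.7% of measured probe sets lay within 0.1 of Car2, 4.24% of Apoe, 5.79% of Dkk3, 4.00% of Glul 161826_r_at and 0.865% of Clu 95286_at. The nearest genes were Mrps7 (0.0053), Slk (0.0071) and Nat8f1 (0.0078) for Car2. For Apoe they were Grik5 (0.0056), Ankfy1 (0.0078) and Tapbp (0.0091), and for Dkk3 Psme1 (0.0026), Pdcd6 (0.0039) and Ogdh (0.0065). Sf3a3 (0.0039), Cyth3 (0.0062) and Med28 (0.0076) lay nearest to Glul. Clu had Rbm15 (0.013), Mrps18a (0.021) and AA545190 (0.022), fewer and more distant neighbours than the other genes. AA545190 read 59.4 in pool 2, under the floor of 124.8, and was set to that floor, so its distance to Clu rests on the floor.

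Of 38 further genes known from Müller glia or their precursors, 29 had a probe set, 23 were measured and 0 passed the test (limma), against 0.216% of all measured probe sets. Their median SD was 0.27 and their median log2 differences were 0.03, 0.07 and 0.08 for pools 1 minus 2, 1 minus 3 and 2 minus 3. Those of the 5 members were 0.60, 0.24 and -0.33, larger in size, with the last of opposite sign. The second of these was -0.11 when the probe sets of each gene were averaged, and a median of 5 genes is less precise than one of 23. Dbi (a binding protein for acyl-CoA) had 4233.6, 4593.8 and 3357.7, and Crym (mu-crystallin, which binds thyroid hormone) 3438.2, 2620.2 and 2995.4. Rlbp1, the retinaldehyde-binding protein of Müller glia and pigment epithelium, had 2014.4, 2832 and 3172.5, lowest in pool 1, where Apoe and Dkk3 were highest. Htra1, a secreted protease, had 2198.8, 2151.7 and 2097.5, a range of 1.05-fold.

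**Figure D4:**
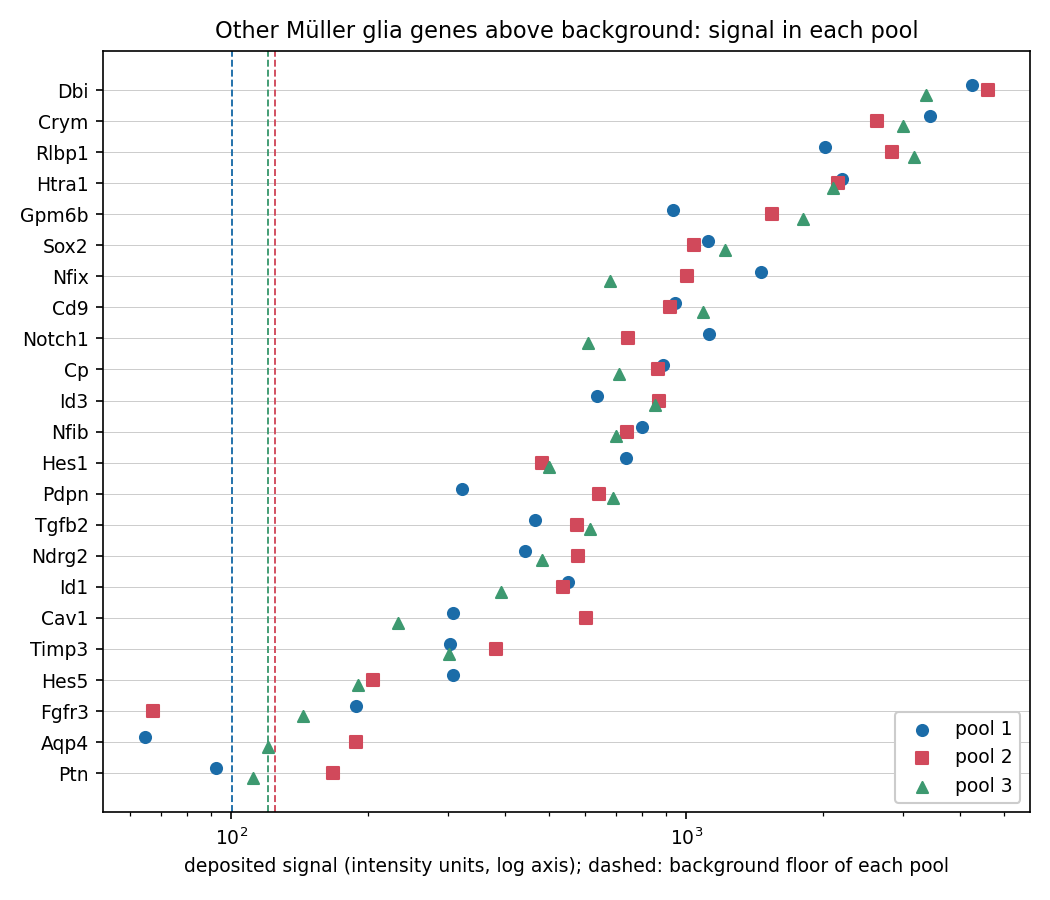
Deposited signal (intensity units, log axis) of the 23 measured genes of the further Müller glia list, 1 point per pool, with the background floor of each pool dashed. Htra1 varied by 1.05-fold and Aqp4, near the floor, by 2.91-fold.

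The widest spreads in this list were those of Cav1 (caveolin), with 307.7, 600.5 and 232.9, and Pdpn (podoplanin), with 320.9, 643 and 690.6. Neither passed (limma, adjusted p = 0.83 for both), and a second Cav1 probe set had 108.4, 93.1 and 172.9, highest in pool 3. An unadjusted p under 0.05 (limma) was found for 5.34% of all measured probe sets and for 4 of the 23 genes. These were Cav1, Pdpn, the transcription factor Nfix (1460.6, 1002.7 and 680) and the membrane protein Gpm6b (934.7, 1544.5 and 1802.3). The latter pair was named after the values were seen. Aqp4, the water channel of mature Müller glial endfeet, had 64.7, 188.2 and 120.2 and was above the floor in pool 2 alone. The stem cell factor Sox2, which persists in these cells, had 1116.9, 1040.5 and 1214.5. Aqp4 and Sox2 were also chosen after their values were seen, and neither passed (limma, adjusted p = 0.99 for Aqp4).

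All 10 rod genes with a probe set were above the floor in all pools, with summed signals of 82967.9, 96470.7 and 85837.8. Their detection does not show that the tissue was neural retina alone, as labelled. Of these 10 genes, 9 were highest in pool 2, while Prph2 was highest in pool 1 and the only one to pass the test (limma). Lens transcripts were also detected, with summed signals of 94913.7, 25459.7 and 203614.4 in pools 1, 2 and 3. Of the 11 measured lens genes, 8 passed (limma), against 0.216% of all measured probe sets. Pigment epithelium markers summed to 1433.6, 1380.9 and 2220.8 over 4 measured genes of 8. Progenitor and cell cycle markers summed to 5228.3, 4802.2 and 4762.9 over 10 measured genes of 14, and their part in the member values was not tested. Between 65.5% and 69.7% of probe sets lay above the floor on each array. The ratio of 3′ to 5′ signal, a measure of RNA integrity, lay between 0.75 and 0.90 for Gapdh. That of Actb was 1.10 in pool 1, 1.40 in pool 2 and 1.63 in pool 3. In pool 3, where Clu was highest, the Actb ratio was thus the highest and the Gapdh ratio the lowest. The part of RNA integrity in the Clu values was not tested. Loss of Rp1 was not checked, since no probe set carried its symbol alone.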

How the data were processed

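The deposited table holds linear intensities, 1 for every probe set on every array. The software behind it is not given in the sources used here. Trimmed means were equal, so the authors had scaled the arrays: the means after trimming 2% at each end were 499.92 in all pools. The deposited intensity values were used without further scaling. A blank row and 66 control probe sets were left out of the gene results. Signals below each array's floor were set to it before log2 was taken.

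Of 12422 probe sets, 10833 had 1 symbol in the platform annotation, 396 several and 1193 none. Symbols were updated for 10817 through gene identifiers (RefSeq, GRCm38.p6). A gene of a list was represented by its brightest probe set. Variation was tested with limma 3.58.1 under R 4.3.3. An intercept was fitted to each probe set, a robust F distribution with an intensity trend was fitted to the variances, and each variance was given its upper-tail p, with Benjamini-Hochberg adjustment over all 8327 measured probe sets with a threshold of 0.05. It was tested on simulated data. P-values measure the spread between these 3 RNA samples.

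Named were all members, of each list up to 4 genes with the highest mean signal, up to 2 with the largest SD and any that passed, and the 3 nearest genes per member. Not all were printed, and exceptions are stated beside their values. The members and lists were chosen with earlier results of these data known. Alternatives changed the floor, normalization, filter, variance prior, choice of probe set and pools. Python 3.11.15, pandas 2.3.3, numpy 2.4.6 and matplotlib 3.10.9 served for the rest.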

Additional observations from a re-analysis of the deposited data

How the results depend on the processing

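No member passed the test under any of the 14 alternatives, with adjusted p of 0.33 or more (limma). Of 326 values of single member probe sets under these alternatives, 322 moved by less than the spread between pools or stayed on their side of the threshold. The 4 others were 2 small differences of Car2 after quantile normalization and 2 differences of Glul with the mean of its probe sets. The measured member probe sets lay above every floor tried. Changing the height of the floor, the filter, the variance prior or the pools therefore could not alter their differences between pools. Many of the 322 were thus fixed in advance, and their number does not measure robustness. With the floor at the highest control, after quantile normalization and without each pool in turn, 7 of the 9 member probe sets were above the floor in all pools used. With the floor at the median control, 8 of the 9 member probe sets were above it in all pools, the eighth being that of Vim. The median of pool 1 minus pool 2 (0.60) was 0.23 with no filter on low values, which adds Vim at its floor, 0.30 with the floor at the median control, which also adds Vim, and 0.31 with probe sets averaged. With Vim added, pool 2 minus pool 3 (-0.33) was -0.15 under both settings. The median of pool 1 minus pool 3 (0.24) was 0.06 with no filter on low values, -0.11 when the probe sets of each gene were averaged, and also -0.11 without probe sets of a relaxed class, an alternative chosen after seeing the data; the latter pair of settings replaces the brighter Glul probe set.

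The count of probe sets that passed (18) was 10 with no floor and a pseudocount of 16, 52 with no filter on low values, 6 with an ordinary fit, 8 with probe sets averaged per gene and 0 with no intensity trend, where 377 had an unadjusted p under 0.05 (limma). It ranged from 4 to 40 when 1 pool was left out. The cause was not tested. No paired analysis was possible because the 3 arrays form 1 group and the labels give no replicate numbers. The number of arrays limits every value, and the probe set of Vim and the second of Apoe have only bounds on their signal.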
